A study of Mus musculus with 12 samples.

Results

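The dual-specificity MAP kinase phosphatases are enzymes that remove phosphate from the threonine and tyrosine residues of active MAP kinases. The 10 genes considered were Dusp1, Dusp2, Dusp4, Dusp5, Dusp6, Dusp7, Dusp8, Dusp10, Dusp14 and Dusp16, and a probe was taken as theirs when its name, or the current symbol of its accession, was one of these. Of these genes, 9 were measured, by 13 of the 41174 probes on the array, and they stood among 19304 genes tested. The Dusp5 transcript is not analysed here, though the Dusp5 promoter is counted in the motif search. Transcripts were profiled in whole uteri of 12 adult ovariectomized female mice of the strain C57bl6/Jx129, at least 10 weeks old, 1 uterus per array, in 4 groups of 3. The groups were EAAE mice given estradiol (E2), EAAE mice given saline, wild-type (WT) mice given E2 and WT mice given saline. EAAE is the genotype at Esr1, which encodes estrogen receptor alpha, and the title of the series describes this receptor as deficient in DNA binding. All mice had rested 10 to 14 days after removal of the ovaries, received a single injection of 100 ul, and were sampled 2 h later. The dose of E2 is not given in the labels used here.

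MAP kinases carry signals from receptors at the cell surface to transcription factors, and each is switched on by phosphorylation of a threonine and a tyrosine. Many genes of these phosphatases are themselves switched on early by the pathways whose kinases they turn off, which makes them a negative feedback. In the uterus, E2 acts mainly through estrogen receptor alpha, which can bind its own response element in DNA or reach genes through other transcription factors, and growth factor signalling to MAP kinases is among its known early actions.

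The promoters of 5 members are shown because these genes range from the largest E2 difference in WT uterus to one of 0.00. Each runs from 250 bases before to 50 bases after the start site and was taken from RefSeq (build GRCm38.p6). Capitals mark the cAMP response element (CRE, TGACGTCA) and the short CRE site (CGTCA, or TGACG on the other strand), and a full CRE holds both short forms.
Dusp8 promoter, chr7:142095235-142095534, minus strand: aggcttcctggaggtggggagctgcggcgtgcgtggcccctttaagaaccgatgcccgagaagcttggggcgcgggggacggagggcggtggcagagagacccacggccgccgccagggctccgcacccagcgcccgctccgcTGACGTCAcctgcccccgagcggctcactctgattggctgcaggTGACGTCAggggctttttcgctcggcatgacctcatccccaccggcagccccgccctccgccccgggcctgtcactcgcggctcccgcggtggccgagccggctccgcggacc
Dusp1 promoter, chr17:26508423-26508722, minus strand: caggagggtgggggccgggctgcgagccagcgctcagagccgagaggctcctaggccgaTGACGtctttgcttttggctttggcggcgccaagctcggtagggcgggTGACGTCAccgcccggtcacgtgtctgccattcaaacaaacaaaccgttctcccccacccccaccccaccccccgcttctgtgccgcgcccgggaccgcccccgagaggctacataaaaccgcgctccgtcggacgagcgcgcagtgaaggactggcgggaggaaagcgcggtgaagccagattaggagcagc
Dusp2 promoter, chr2:127335909-127336208, plus strand: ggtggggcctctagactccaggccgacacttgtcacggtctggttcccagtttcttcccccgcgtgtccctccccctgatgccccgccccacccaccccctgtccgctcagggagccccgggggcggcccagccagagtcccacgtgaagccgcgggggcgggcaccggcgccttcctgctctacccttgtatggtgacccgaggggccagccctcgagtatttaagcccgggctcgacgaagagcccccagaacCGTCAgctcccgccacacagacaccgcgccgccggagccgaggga
Dusp6 promoter, chr10:99262981-99263280, plus strand: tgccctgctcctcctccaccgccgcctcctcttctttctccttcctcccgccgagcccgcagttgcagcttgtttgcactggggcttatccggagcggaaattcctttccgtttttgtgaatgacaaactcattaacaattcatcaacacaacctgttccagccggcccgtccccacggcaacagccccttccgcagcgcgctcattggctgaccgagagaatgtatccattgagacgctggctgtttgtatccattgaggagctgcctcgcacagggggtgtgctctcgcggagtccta
Dusp10 promoter, chr1:184034131-184034430, plus strand: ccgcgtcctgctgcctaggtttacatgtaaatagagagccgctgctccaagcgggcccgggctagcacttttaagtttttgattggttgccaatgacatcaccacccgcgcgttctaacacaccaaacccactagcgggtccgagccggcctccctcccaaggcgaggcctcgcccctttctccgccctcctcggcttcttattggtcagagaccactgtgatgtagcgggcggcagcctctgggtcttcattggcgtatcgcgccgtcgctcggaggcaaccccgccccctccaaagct
A full CRE stood in the promoters of Dusp8, with 2 copies, and Dusp1, with 1 copy, and in 1.79% of 32851 mouse promoters of the same length. In Dusp8 the copies lay at -107 to -100 and at -63 to -56 from the start site, and in Dusp1 the copy lay at -143 to -136. Of the 9 members with a promoter in the table, Dusp4 being the one without, 5 held a short CRE site (Dusp1, Dusp2, Dusp5, Dusp8 and Dusp16), against 20.8% of all promoters. The palindromic estrogen response element, 2 inverted short sites GGTCA with 3 bases between them, was found in none of the 9 and in 0.07% of promoters. The AP-1 site TGANTCA, searched on both strands like the others, was also found in none of them and in 7.81% of promoters. The short ERE site alone is common, at 40.5% of promoters, and 7 of the 9 members held one. The Sp1 site GGGCGG stood in 8 of the 9, all but Dusp6, and in 35.7% of promoters. The share of C and G bases in the member promoters ran from 57.3% in Dusp6 to 78.7% in Dusp7. Its part in these motif counts was not tested. The CArG box, the site of serum response factor, stood in Dusp5 alone of the members, with 2 copies, and in 1.63% of promoters. These matches are letters in a window and were not tested for binding.

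**Figure D1:**
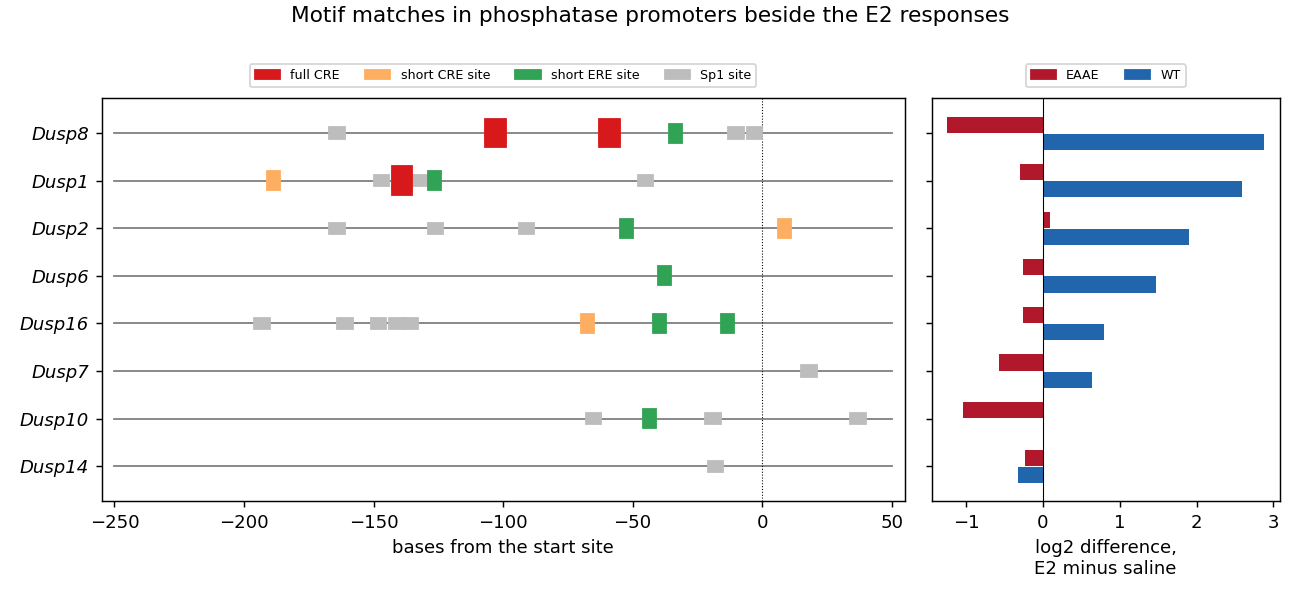
Left, matches to 4 motifs in the promoters of the 8 measured members with a promoter entry, by distance in bases from the start site. Right, the log2 difference of E2 minus saline in EAAE uterus (upper bar) and WT uterus (lower bar). The full CRE is present in Dusp8 and Dusp1, whose WT differences are 2.87 and 2.59.

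Levels below are log2 intensities relative to the 75th percentile of the same array, so that 0 is the intensity of that percentile and 1 unit is a doubling. A difference between group means was called when limma's adjusted p over all genes was under 0.05. The 75th percentile itself was 1398 to 1942 intensity units, and 64.0 to 74.0% of spots per array were well above background. Within a group, arrays correlated with r of 0.982 to 0.993 over 12 pairs, and between groups with r of 0.918 to 0.988 over 54 pairs. Each of the 13 probes was well above background on all 12 arrays. All 10 markers of uterine epithelium, all 10 of stroma and all 8 of smooth muscle were well above background on every array. Esr1 was well above background on every array too, and the title describes a change in DNA binding, which a transcript level cannot check. In bulk tissue, fewer cells of a type and less RNA per cell cannot be told apart. Of the 4 positions on each of the 3 slides, the last always held the EAAE E2 array. The last position and the EAAE E2 group thus cannot be told apart other than by a linear term for position. Position and genotype were partly confounded in saline too. EAAE saline arrays sat at positions 2, 3 and 3, and WT saline arrays at positions 1, 1 and 2. Whether a probe lies in a coding or an untranslated exon part was not analysed here.

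The members divided by genotype. In EAAE uterus none of the 9 rose after E2 and 3 fell (Dusp8, Dusp10 and Dusp7), where 0.72% of all genes fell and 0.689% rose. In WT uterus 6 of the 9 rose after E2 (Dusp8, Dusp1, Dusp2, Dusp6, Dusp16 and Dusp7) and none fell, where 19.5% of all genes rose and 29.9% fell. The median difference of the members was -0.29 in EAAE uterus and 0.80 in WT uterus, against medians over all genes of 0.03 and -0.15. Under all of the other scalings tried, the same 6 members were called higher in WT uterus. Dusp4 and Dusp14 were not called in either genotype, although each was called lower in WT uterus under some other settings, given with its values. Within slides 1 and 3, which held both WT groups, the WT differences were 2.95 and 3.07 for Dusp8, 2.63 and 2.52 for Dusp1, and 1.58 and 2.20 for Dusp2. They were 1.44 and 1.51 for Dusp6, 0.72 and 0.74 for Dusp16, and 0.63 and 0.70 for Dusp7.

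**Figure D2:**
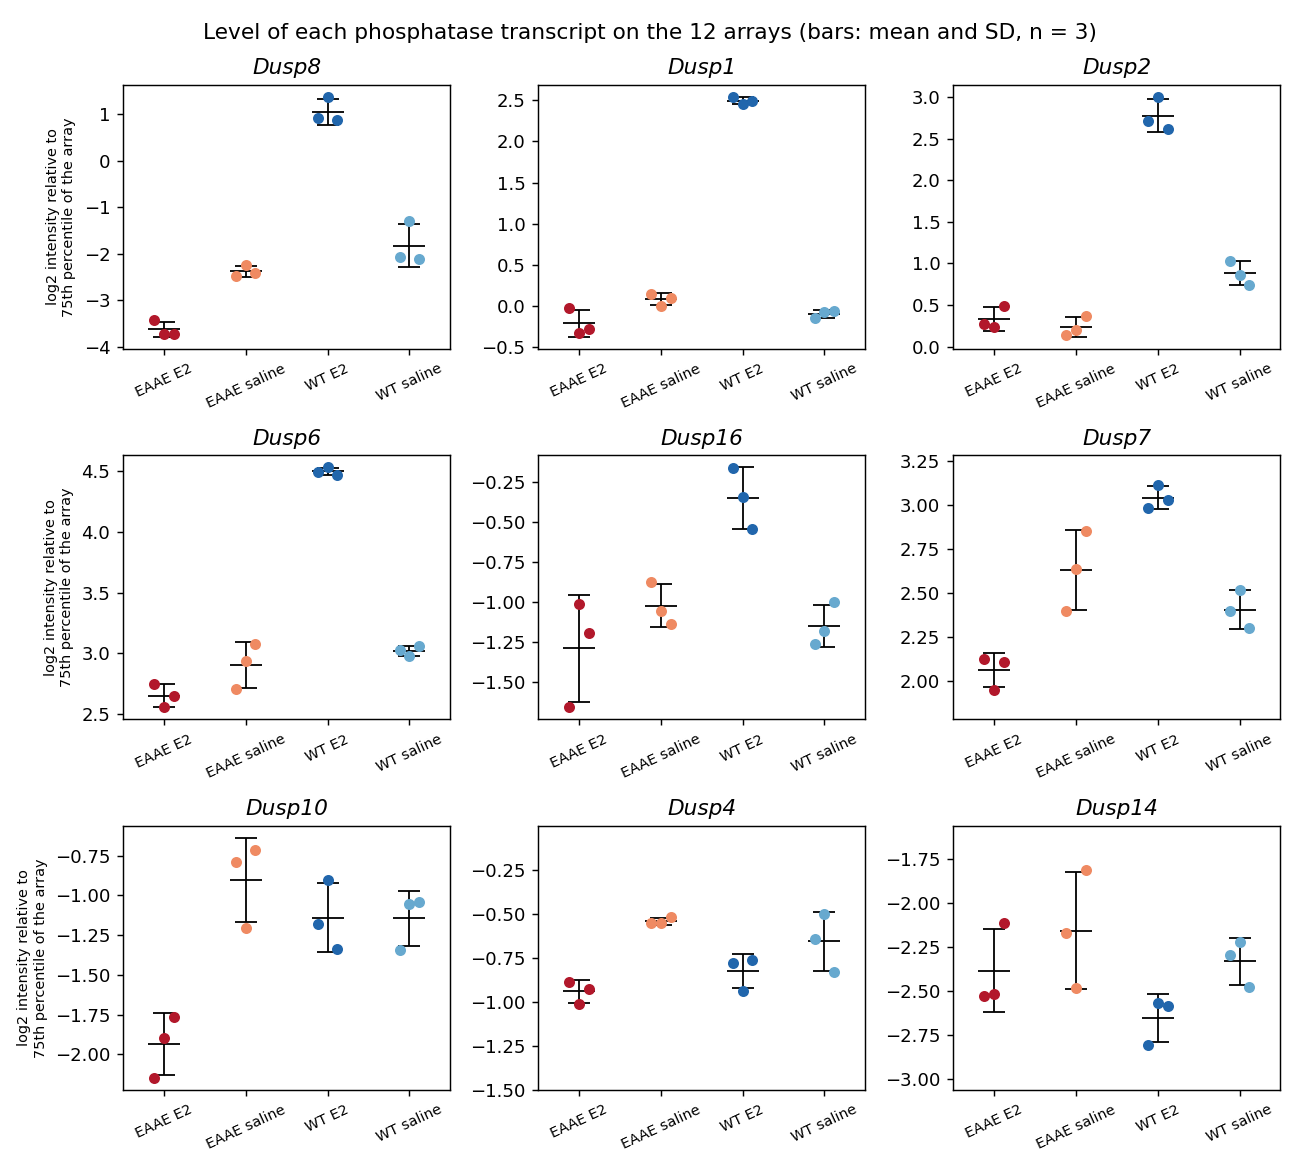
Level of each measured member on the 12 arrays, as log2 intensity relative to the 75th percentile of the array, with points for single arrays and bars for the mean and SD (n = 3). The WT E2 arrays are above every other array for Dusp8, Dusp1, Dusp2, Dusp6, Dusp16 and Dusp7. Scales differ between panels.

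Dusp1, Dusp2 and Dusp4 encode phosphatases that reside in the nucleus and are known as inducible genes. Dusp1, the prototype of the family, acts on p38, JNK and ERK kinases. Its levels were -0.02, -0.33 and -0.28 in EAAE E2 uteri, against 0.15, 0.00 and 0.10 in EAAE saline uteri. They were 2.54, 2.46 and 2.49 in WT E2 uteri, against -0.15, -0.08 and -0.05 in WT saline uteri. The WT E2 arrays stood together, far above the other 9. The groups did not overlap in EAAE uterus either, but the difference there was -0.29 (SE 0.09, adjusted p = 0.149) and was not called. In WT uterus Dusp1 rose by 2.59 (SE 0.09, 6.01-fold, adjusted p = 4e-08). Only 172 of the 19304 genes had a larger difference in that comparison. The Dusp1 probe lies at chr17:24690398-24690455 (mm7, minus strand).

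Dusp2 encodes a nuclear phosphatase best known from blood cells. Its levels were 0.27, 0.23 and 0.49 in EAAE E2 uteri, against 0.13, 0.20 and 0.36 in EAAE saline uteri. The WT E2 levels were 2.72, 3.00 and 2.62, against 1.03, 0.86 and 0.74 in WT saline uteri. The EAAE groups overlapped and both lay below all WT arrays, saline ones included. The E2 difference was 0.10 in EAAE uterus (95% interval -0.18 to 0.38, adjusted p = 0.74). Dusp2 rose by 1.90 in WT uterus (SE 0.13, 3.73-fold, adjusted p = 1.5e-06). Its probe lies at chr2:127079047-127079106 (mm7, plus strand).

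Dusp4, a nuclear relative of Dusp1, showed no call after E2 by its brighter probe, at chr8:33583106-33583165 (mm7, plus strand). Its levels were -0.89, -1.01 and -0.93 in EAAE E2 uteri, against -0.55, -0.55 and -0.52 in EAAE saline uteri. The WT E2 levels were -0.78, -0.94 and -0.76, against -0.64, -0.50 and -0.83 in WT saline uteri. The EAAE groups did not overlap and the WT groups did. The difference was -0.40 in EAAE uterus (95% interval -0.61 to -0.19, adjusted p = 0.0714) and -0.17 in WT uterus (95% interval -0.38 to 0.04, adjusted p = 0.162). The WT value was called only when the array WT saline 3 was left out, at an adjusted p of 0.0467.

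Dusp6 and Dusp7 encode cytoplasmic phosphatases that act mainly on ERK. For Dusp6 the levels were 2.75, 2.56 and 2.65 in EAAE E2 uteri, against 2.70, 2.94 and 3.08 in EAAE saline uteri. WT E2 uteri gave 4.49, 4.53 and 4.47, against 3.03, 2.98 and 3.06 in WT saline uteri. The probe lies at chr10:98828759-98828818 (mm7, plus strand). Replicates of the WT groups were close together, and the WT E2 arrays were clear of all others. Dusp6 rose by 1.48 in WT uterus (SE 0.10, 2.78-fold, adjusted p = 1.6e-06). In EAAE uterus the difference was -0.26 (SE 0.10, adjusted p = 0.239), with overlapping groups.

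Dusp7 had levels of 2.13, 1.95 and 2.11 in EAAE E2 uteri, against 2.40, 2.64 and 2.86 in EAAE saline uteri. WT E2 uteri gave 2.99, 3.11 and 3.03, against 2.40, 2.52 and 2.30 in WT saline uteri. The probe lies at chr9:106104814-106104873 (mm7, plus strand). The EAAE E2 arrays were the lowest of all 12 and the WT E2 arrays the highest. Dusp7 fell by 0.57 in EAAE uterus (SE 0.12, 1.48-fold lower, adjusted p = 0.0452) and rose by 0.64 in WT uterus (SE 0.12, 1.55-fold, adjusted p = 0.00116). The EAAE call lay close to the threshold and was lost under 18 of 25 other settings.

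Dusp8, Dusp16 and Dusp10 encode phosphatases that prefer the stress-activated kinases JNK and p38 to ERK. Dusp8 had the widest range of the members. Its levels were -3.43, -3.72 and -3.71 in EAAE E2 uteri, against -2.48, -2.25 and -2.41 in EAAE saline uteri. They reached 0.90, 1.36 and 0.87 in WT E2 uteri, against -2.07, -1.29 and -2.12 in WT saline uteri. The 4 groups did not overlap, with WT E2 highest, then WT saline, EAAE saline and EAAE E2. Dusp8 fell by 1.24 in EAAE uterus (SE 0.22, 2.37-fold lower, adjusted p = 0.0279) and rose by 2.87 in WT uterus (SE 0.22, 7.33-fold, adjusted p = 3.5e-06). The probe lies at chr7:138508909-138508968 (mm7, minus strand). By this probe, only 62 genes had a lower difference in EAAE uterus, and 127 a higher one in WT uterus. The EAAE call was lost under 11 of 25 other settings. A brighter Dusp8 probe outside the rule gave -0.48 in EAAE uterus (adjusted p = 0.167), which was not called.

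Dusp16 had levels of -1.66, -1.01 and -1.19 in EAAE E2 uteri, against -0.87, -1.06 and -1.14 in EAAE saline uteri. WT E2 uteri gave -0.16, -0.35 and -0.55, against -1.26, -1.18 and -1.0 in WT saline uteri. The WT E2 arrays were the 3 highest and the other 3 groups overlapped. The probe lies at chr6:134729960-134730000 (mm7, minus strand). Dusp16 rose by 0.80 in WT uterus (SE 0.17, 1.74-fold, adjusted p = 0.00257). The EAAE difference was -0.26 (95% interval -0.63 to 0.10, adjusted p = 0.46).

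Dusp10 was called in EAAE uterus and not in WT uterus. Its levels were -2.15, -1.90 and -1.76 in EAAE E2 uteri, against -0.79, -1.21 and -0.71 in EAAE saline uteri. In WT E2 uteri they were -1.18, -0.91 and -1.34, against -1.34, -1.05 and -1.04 in WT saline uteri. The EAAE E2 arrays lay below the other 9, which overlapped. Dusp10 fell by 1.03 in EAAE uterus (SE 0.17, 2.05-fold lower, adjusted p = 0.0197). The WT difference was 0.00 (95% interval -0.36 to 0.37, adjusted p = 0.984). The responses themselves differed by -1.04 (SE 0.23, adjusted p = 0.0064). Its probe lies at chr1:183600757-183600816 (mm7, plus strand).

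Dusp14 encodes a small atypical phosphatase that lacks the kinase-docking domain of the other members. Its brighter probe lies at chr11:84118020-84118079 (mm7, minus strand). Its levels were -2.53, -2.52 and -2.11 in EAAE E2 uteri, against -2.17, -2.49 and -1.82 in EAAE saline uteri. In WT E2 uteri they were -2.81, -2.57 and -2.59, against -2.30, -2.22 and -2.48 in WT saline uteri. The EAAE groups overlapped and the WT groups did not. The difference was -0.23 in EAAE uterus (95% interval -0.61 to 0.16, adjusted p = 0.545) and -0.32 in WT uterus (95% interval -0.71 to 0.06, adjusted p = 0.15). The WT value was called lower with the mean of both probes, at -0.33 (adjusted p = 0.025), and with only the WT groups in the fit (adjusted p = 0.0462).

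**Figure D3:**
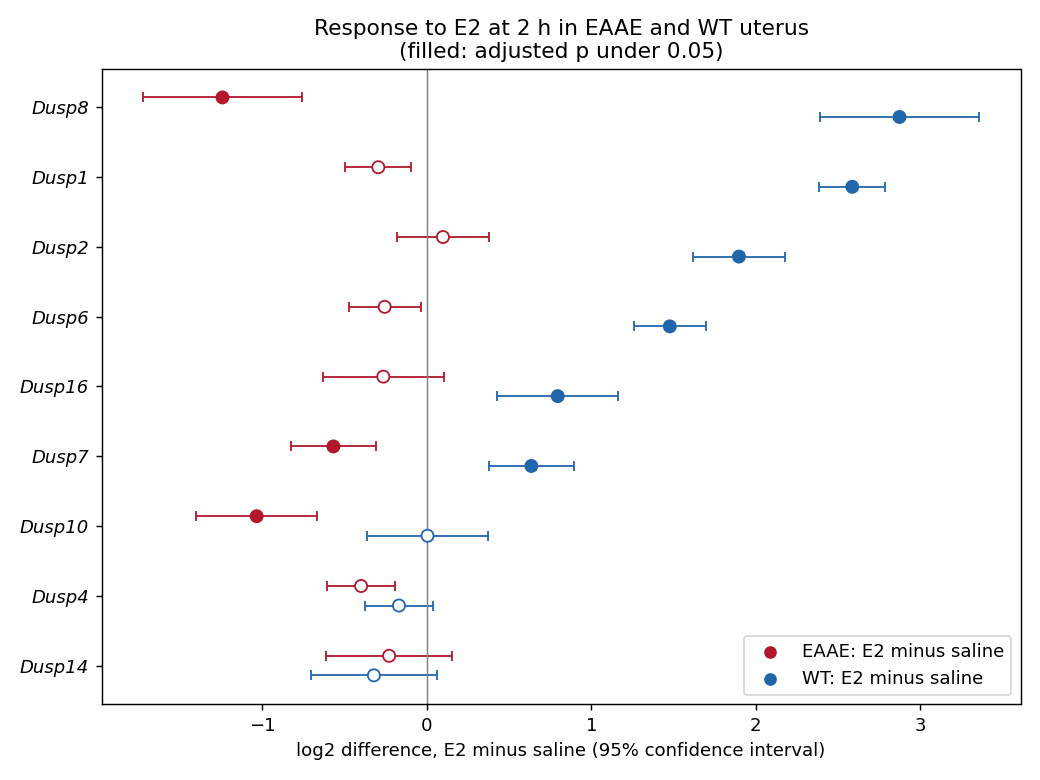
Log2 difference of E2 minus saline for each measured member in EAAE uterus (upper point of each pair) and WT uterus (lower point), with 95% confidence intervals from limma and filled points where the adjusted p was under 0.05. In WT uterus 6 members lie right of 0 with filled points, and in EAAE uterus the filled points of Dusp8, Dusp7 and Dusp10 lie left of 0.

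In EAAE uterus 8 of the 9 differences were below 0, as were 45.3% of those of all genes. An unadjusted p under 0.05 was found for 6 of the 9 and for 16.1% of all genes. The 3 calls kept their sign under all 25 other settings, with a range of -1.35 to -0.76 for Dusp8, -1.19 to -0.93 for Dusp10 and -0.68 to -0.46 for Dusp7. Several settings, such as leaving out a WT array or the replicate block, could not change these values, so the sign was fixed there. The mean of all probes could not either, since each of the 3 members had 1 probe within the rule. The deposited table repeats the intensities, so there the calls were fixed too. The calls themselves were less stable: Dusp8 was not called under 11 of the 25 and Dusp10 under 7. With position on the slide as a term, none was called, and the values were -1.35 for Dusp8 (adjusted p = 0.173), -1.14 for Dusp10 (adjusted p = 0.132) and -0.67 for Dusp7 (adjusted p = 0.192). Within the slides that held both EAAE groups, slides 1 and 2, the differences were -1.18 and -1.27 for Dusp8. They were -0.94 and -1.15 for Dusp10, and -0.51 and -0.67 for Dusp7. Leaving out EAAE E2 1, EAAE E2 2 or EAAE saline 3 left 0 members called, leaving out EAAE E2 3, EAAE saline 1 or EAAE saline 2 left 1, and leaving out any WT array left 2. Over all genes, 47 were called lower in EAAE uterus and higher in WT uterus, out of 139 lower in EAAE uterus and 3756 higher in WT uterus. Dusp8 and Dusp7 are among the 47.

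**Figure D4:**
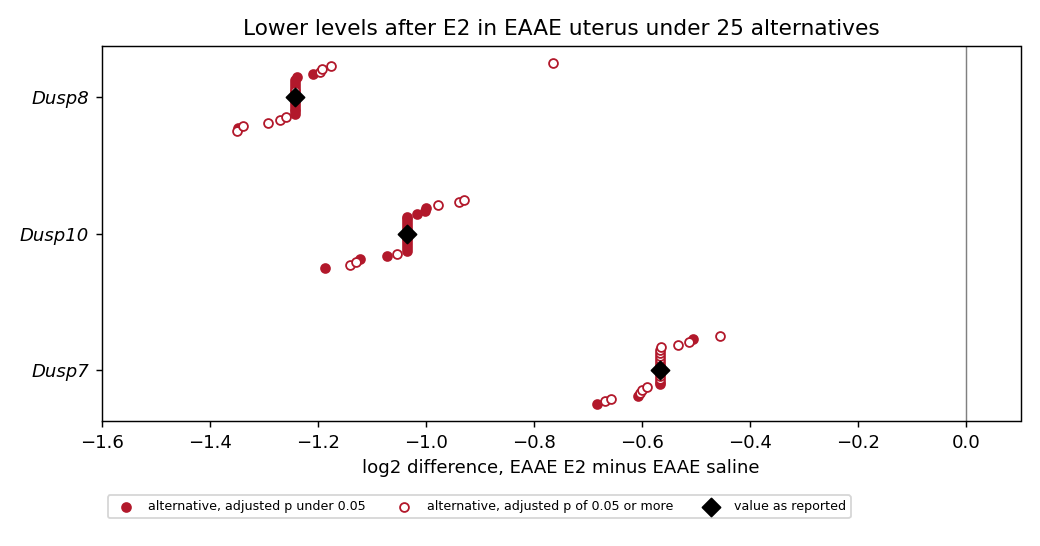
Log2 difference of EAAE E2 minus EAAE saline for the 3 members called lower there, under 25 alternative settings (circles, filled where the adjusted p was under 0.05) and as reported (diamonds). All values lie left of 0, from -1.35 to -0.46, and open circles occur for each gene.

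The response difference, EAAE minus WT, asks whether the genotypes responded unequally. Of the 9 members, 7 had a lower response in EAAE uterus and none a higher one, where 14.8% of all genes were lower and 22.7% higher. The median over members was -1.20, against 0.15 over all genes. Dusp8 differed most, by -4.12 (SE 0.31, adjusted p = 9.1e-06), followed by Dusp1 at -2.88 (SE 0.13, adjusted p = 6.3e-07). The other differences were -1.80 for Dusp2, -1.73 for Dusp6, -1.20 for Dusp7, -1.06 for Dusp16 and -1.04 for Dusp10. Dusp4, at -0.23 (95% interval -0.53 to 0.07), and Dusp14, at 0.09 (95% interval -0.45 to 0.64), were not called. All 7 calls held under every other setting run, although the deposited table repeats the intensities and could not change them. Slide 1, which held all 4 groups, gave values of -4.13 for Dusp8 and -0.95 for Dusp10 at the ends of the range.

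After E2, the levels in EAAE and WT uteri were also set against each other. The same 7 members were lower in EAAE E2 than in WT E2 uteri and none was higher, where 24.8% of all genes were lower and 33.0% higher. Cell type markers differed in the same comparison. In EAAE E2 against WT E2 uteri, 8 of 8 adipocyte markers were higher (median 3.66), and 8 of 10 stroma markers were higher and none lower (median 0.87). Epithelial markers counted 6 higher and 2 lower of 10, skeletal muscle markers 5 higher and 1 lower of 6 tested, and smooth muscle markers 1 higher and 5 lower of 8 (median -0.53). Their part in the differences of the members was not tested. Dusp8 was lower by the most, with a difference of -4.67 (SE 0.22, 25.4-fold, adjusted p = 7.6e-08). Dusp1 differed by -2.71 (6.52-fold), Dusp2 by -2.45 (5.46-fold) and Dusp6 by -1.85 (3.6-fold). Smaller differences were found for Dusp7, at -0.98, Dusp16, at -0.93, and Dusp10, at -0.80. Within the 3 slides the Dusp8 difference was -4.30, -4.62 and -5.08. The Dusp16 call was lost with slide and position as terms (adjusted p = 0.0511). These values share arrays with the responses above and are not separate evidence.

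Before hormone, a single member differed between genotypes, where 15.8% of all genes were lower in EAAE saline uteri and 13.7% higher. Dusp2 was lower in EAAE saline than in WT saline uteri by 0.65 on the log2 scale (difference -0.65, SE 0.13, 1.57-fold, adjusted p = 0.00358). Within slide 1 the Dusp2 difference was -0.83, and the call was lost with slide and position as terms (adjusted p = 0.324). Dusp7 was called higher in EAAE saline uteri when EAAE saline 1 was left out (adjusted p = 0.0456), which made 2 members. The median over members was 0.13, against -0.02 over all genes. Dusp8 differed by -0.55 (SE 0.22, adjusted p = 0.0806), without overlap of the groups but not past the threshold. Beside Dusp2, which blood cells express, 5 of 10 macrophage markers were lower and 1 was higher in EAAE saline uteri, with a median of -1.20. Of 10 lymphocyte markers 3 were lower and none higher, with a median of -0.60. The summed level of the macrophage markers was 12.7 to 16.6 in EAAE saline uteri and 22.7 to 33.4 in WT saline uteri, as multiples of the 75th percentile. Other tissues differed as well: 7 of 10 epithelial markers were higher and 2 lower (median 0.65), and 4 of 6 tested skeletal muscle markers were higher and 1 lower (median 1.01). The summed level of the lymphocyte markers was 1.95 to 1.96 in EAAE saline uteri and 2.90 to 3.24 in WT saline uteri, with 9 of the 10 well above background on all arrays. The part of these cells in the Dusp2 difference was not tested.

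Other probes of the same genes gave mostly the same picture. A second probe of Dusp8, listed under the older name 5530400B01Rik and therefore outside the rule, read -2.39, -2.15 and -2.37 in EAAE E2 uteri, against -1.72, -1.78 and -1.97 in EAAE saline uteri. It read 1.19, 1.55 and 1.03 in WT E2 uteri, against -1.64, -1.20 and -1.61 in WT saline uteri. This probe was brighter than the first in each group, with a mean of -2.30 against -3.62 in EAAE E2 uteri. Its WT difference of 2.74 (SE 0.16) was close to the 2.87 of the first probe, while its EAAE difference of -0.48 (SE 0.16, adjusted p = 0.167) was smaller than -1.24 and was not called. The 3 probes of Dusp16 gave WT differences of 0.80, 0.91 and 1.09, all called, and EAAE differences of -0.26, -0.52 and -0.48, none called. In saline, one of them, A_52_P374825, was higher in EAAE uteri by 0.58 (adjusted p = 0.0237), where the other 2 gave 0.13 and 0.23 without a call. The second Dusp14 probe was called lower in WT uterus after E2, at -0.35 (adjusted p = 0.0458), where the first gave -0.32 and no call. For Dusp4 the dimmer second probe gave -0.62 in EAAE uterus and 0.09 in WT uterus, neither called.

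**Figure D5:**
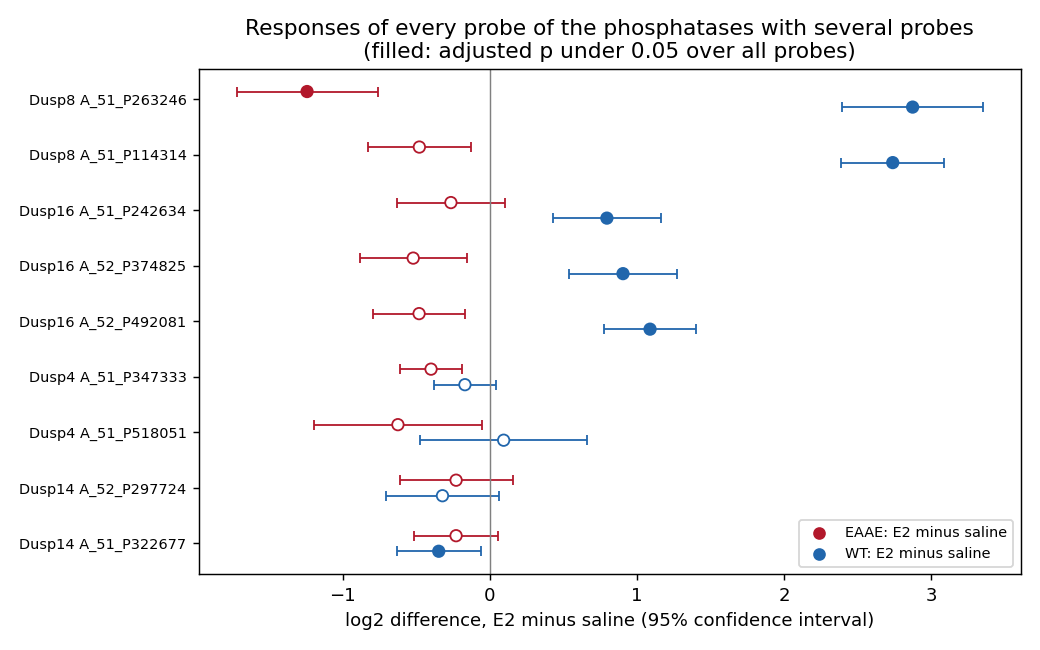
Log2 difference of E2 minus saline in EAAE uterus (upper point) and WT uterus (lower point) for every probe of the 4 members with several probes, with 95% confidence intervals and filled points where the adjusted p over all probes was under 0.05. Both Dusp8 probes lie near 2.8 in WT uterus, at 2.87 and 2.74, and apart in EAAE uterus, at -1.24 and -0.48.

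The patterns over the 12 arrays were compared as the root mean square of the differences between genes, each gene set relative to its own WT saline mean. This is a description with no test. Among members, Dusp2 and Dusp6 were nearest of the pairs with Dusp1, Dusp2 or Dusp8, at 0.37, and Dusp8 was 0.83 from Dusp2 and 0.95 from Dusp1. Among all genes, the 3 nearest to Dusp1 were Spty2d1 at 0.17, Nrip1 at 0.18 and Tob1 at 0.20. Nrip1 encodes a nuclear receptor corepressor and Tob1 an antiproliferative protein. Those nearest to Dusp2 were Il17c and Aldh1a2, both at 0.19, and Fkbp14 at 0.20. Aldh1a2 encodes an enzyme that makes retinoic acid. No gene was as near to Dusp8: Eva1a stood at 0.39, Wnt4, a signalling ligand of uterine stroma, at 0.46, and an unnamed probe, A_51_P515046, at 0.49.

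Genes around the phosphatases in the same pathway were followed in the same fits. In EAAE uterus after E2, none of 18 other dual-specificity phosphatases, 14 MAP kinases, 19 kinases listed as upstream or 23 kinases and transcription factors that MAP kinases act on was called. Over all genes 0.689% rose and 0.72% fell there, so the absence of calls is close to the share of all genes. In WT uterus the other dual-specificity phosphatases counted 3 higher and 6 lower of 18, with a median of -0.03, where 19.5% of all genes rose and 29.9% fell. Among them Ssh2, a slingshot phosphatase of cofilin, fell by 1.86, Dusp23 fell by 1.20, Dusp26 fell by 0.96 and Dusp28 fell by 0.64.

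The MAP kinases counted 2 higher and 2 lower of 14 in WT uterus, with a median of -0.02. Over all genes 19.5% rose and 29.9% fell there, which is the share to set beside each count below. Mapk6, an atypical MAP kinase, rose by 0.92 and Mapk12, a p38 kinase, rose by 0.30, while Mapk3, which is ERK1, fell by 0.47 and Mapk14, the main p38 kinase, fell by 0.45. Of the kinases listed as upstream 7 rose and 4 fell of 19. Map2k1, which activates ERK, rose by 1.82 and Map2k7, which activates JNK, rose by 0.68, whereas Map3k8 fell by 1.33. Map3k14, whose place upstream of the MAP kinases was not examined here, rose by 1.09. Of the genes that MAP kinases act on, 9 rose and 5 fell of 23. Srf, a transcription factor of early genes, rose by 1.78, the p38 target kinase Mapkapk2 rose by 1.57 and Ets2 rose by 1.02, and Etv1 fell by 1.11.

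Other feedback inhibitors of receptor-to-ERK signalling split in WT uterus into 7 higher and 5 lower of 16, with a median of -0.04. Over all genes 19.5% rose and 29.9% fell there. Errfi1, an inhibitor of the EGF receptor, had levels of 1.83, 2.15 and 2.01 in EAAE E2 uteri, against 2.48, 2.18 and 1.95 in EAAE saline uteri. In WT E2 uteri it stood at 5.70, 5.86 and 5.50, against 2.00, 2.05 and 2.04 in WT saline uteri. The WT E2 arrays alone were high, and Errfi1 rose by 3.66 there (SE 0.14, adjusted p = 6.7e-08), with -0.21 in EAAE uterus (adjusted p = 0.504). Spry2, a Sprouty inhibitor of the same pathway, rose by 1.5 in WT uterus and gave -0.20 in EAAE uterus (adjusted p = 0.319). Il17rd fell by 0.74 in WT uterus. Spry4, a second Sprouty gene, was not well above background on any WT saline or EAAE E2 array. It was at least 13.6-fold higher in WT E2 than in WT saline uteri (adjusted p = 1.7e-06). In EAAE uterus it was the only gene of these lists called, lower after E2 (adjusted p = 0.0427). No minimum fold is given there, since only 2 of 3 EAAE saline arrays were well above background.

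The early genes Fos and Egr1, which encode transcription factors induced through MAP kinases in many cells, were read beside the members. After E2, Fos differed by 0.41 in EAAE uterus (adjusted p = 0.602) and rose by 5.43 in WT uterus (adjusted p = 1.5e-06). Egr1 differed by 0.21 in EAAE uterus (adjusted p = 0.688) and rose by 2.99 in WT uterus (adjusted p = 3.3e-06). Esr1 differed by -0.23 in EAAE uterus (adjusted p = 0.267) and fell by 0.25 in WT uterus (adjusted p = 0.0483). The Esr1 responses differed by 0.02 (adjusted p = 0.915). Its level was higher in EAAE than in WT uteri, by 0.40 in saline (SE 0.09, adjusted p = 0.00962) and by 0.42 after E2 (SE 0.09, adjusted p = 0.00294), without overlap of the groups.

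Markers of other cell types were read in the E2 comparisons too, where 19.5% of all genes rose and 29.9% fell in WT uterus. In EAAE uterus 0.689% of all genes rose and 0.72% fell, so marker sets without a call there are close to that share. Of 8 adipocyte markers none was called in EAAE uterus after E2 and 8 were lower in WT uterus, with a median of -3.15. Their summed level ranged from 39.8 to 202 in EAAE E2 uteri, 26.8 to 156 in EAAE saline uteri, 2.98 to 19.8 in WT E2 uteri and 20.7 to 139 in WT saline uteri. Of 10 stroma markers 1 was higher in EAAE uterus and 9 were lower in WT uterus, with medians of 0.34 and -1.03. Endothelial markers counted 0 of 8 called in EAAE uterus and 5 of 8 lower in WT uterus. Macrophage markers counted 0 of 10 called in EAAE uterus and 3 of 10 lower in WT uterus, with medians of 0.52 and -0.60. The 10 epithelial markers had 0 called in EAAE uterus, and 1 higher and 2 lower in WT uterus. Smooth muscle markers counted 0 of 8 called in EAAE uterus and 1 of 8 lower in WT uterus. These macrophage, epithelial and smooth muscle counts are close to or below the shares of all genes. The part of these cell types in the responses of the members was not tested.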

How the data were processed

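Uterine transcripts of 12 mice were measured on single-colour Agilent arrays with Cy3-labelled cRNA made from 500 ng of total RNA. Per the file headers, the authors used Agilent Feature Extraction, version 9.5.3.1 (9.5 per the submitters' processing notes), to read the intensity of each spot, and coordinates are those of the files (mm7). The deposited intensity is background-corrected and linear, with no scaling from array to array. A second deposited table repeats these intensities and was equal on 45018 of 45018 spots of each array.

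The deposited intensity was taken to log2, spots of a probe were averaged after leaving out 1639 control spots and 56 to 117 outlier spots per array, and the 75th percentile of the array was subtracted. Between 3 and 5 saturated spots per array were kept. A filter kept 29017 of 41174 probes, those well above background throughout 1 group or more, and dropped 12157. Each gene was represented by its brightest probe on average, giving 19304 genes. Members used only probes within the rule, also for the mean of all probes, which left out a brighter Dusp8 probe. Names came from the probe's accession or name through a RefSeq table (GRCm38.p6), which also gave the promoters. Promoters were searched on both strands for the CRE, AP-1, Sp1, estrogen response and CArG motifs.

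The fits used limma 3.58.1 (R 4.3.3, lmFit and eBayes) on the 12 arrays. P-values were 2-sided and adjusted by Benjamini-Hochberg over the 19304 genes, with a threshold of 0.05. There were 5 comparisons. Each array held 1 uterus, and 3 mice per group limit the precision. The script was tested on simulated data. Alternatives were other scalings, normexp background correction (offset 50), filters on dim probes, the mean of all probes of a gene, the deposited table, a variance trend, slide, position and replicate number as terms, only the groups compared, and leaving out each array. Python 3.11.15 with pandas 2.3.3 and matplotlib 3.10.9 made tables and plots.

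Named genes were all members with each of their probes, up to 4 genes of each list with the smallest p in WT uterus plus any called in EAAE uterus, the 3 nearest genes in pattern for the 3 members with the largest WT difference, Esr1, Fos and Egr1. The members and lists were chosen with earlier results of these data known.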

Additional observations from a re-analysis of the deposited data

Results flagged for a closer look

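For 7 members the E2 response differed between EAAE and WT uterus by the test of the difference itself (limma, adjusted over all genes). The response difference, EAAE minus WT, was -4.12 for Dusp8, -2.88 for Dusp1, -1.80 for Dusp2, -1.73 for Dusp6, -1.20 for Dusp7, -1.06 for Dusp16 and -1.04 for Dusp10. For Dusp8 and Dusp7 the 2 responses had opposite signs and both were called, at -1.24 in EAAE uterus and 2.87 in WT uterus for Dusp8, and at -0.57 and 0.64 for Dusp7. The EAAE calls were lost under 11 of 25 other settings for Dusp8 and 18 of 25 for Dusp7, both with position as a term, and the second Dusp8 probe gave -0.48 in EAAE uterus (adjusted p = 0.167). For Dusp10 the EAAE response of -1.03 was called and the WT response was 0.00. This EAAE call was lost under 7 of 25 other settings, among them position as a term (adjusted p = 0.132).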

How the results depend on the processing

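For single members 1222 values were recomputed under other settings. None changed sign where it was called, 1157 stayed on their side of the threshold or within the spread, 39 calls were lost, 6 were gained and 20 values within a slide moved by over 1 SD. Among these, 17 values that were not called in either fit changed sign. Some settings, such as a variance trend, alter only the spread, so no sign could change there. The deposited table repeats the intensities, so neither a value nor a call could change there. The 6 WT calls and the 7 calls of the response difference were kept under every setting. The EAAE calls were not: of the 3 members called in EAAE uterus, 1 was called with no filter on dim probes, and 0 with position as a term, with slide and position, or with only the groups compared. Leaving out single arrays gave 0 to 2. In WT uterus 7 members were called in place of 6 with the mean of all probes or only the groups compared, where Dusp14 joined as lower, and without WT saline 3, where Dusp4 did. The genotype call in saline (1 member) went to 0 with slide and position, and leaving out single arrays gave 1 to 2. The cause of these changes was not tested.

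Over all genes, the 272 calls in EAAE uterus became 127 without the filter, 152 with slide, 24 with position, 7 with slide and position, 145 with the replicate block, 7 with only the groups compared, and 62 to 381 when single arrays were left out. The 5691 calls of EAAE against WT in saline became 3622 with slide, 2985 with position and 416 with both. The 11152 calls of EAAE against WT after E2 became 7310 with position and 5194 with slide and position, and the 9531 WT calls became 6272 with both. Same-numbered arrays deviated together with r of -0.28 to 0.27 over 18 pairs, against -0.36 to 0.35 over 36 pairs with other numbers. The medians were 0.03 and 0.02, so no pairing by replicate number was seen. Under the replicate block the Dusp7 call in EAAE uterus was lost (adjusted p = 0.0843). Scaling by the array median in place of the 75th percentile moved the median of all genes in WT uterus to -0.01, against -0.15, and the share of higher among called genes to 53.5%, against 39.4%. That share became 62.6% against 48.9% in EAAE uterus, and 49.8% against 60.5% for the response difference.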
